A study of Rattus norvegicus with 12 samples.

Results

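Fos, Jun, Egr1, Atf3 and Myc were followed through an RNA-seq experiment on 2 rat kidney cell lines. They were chosen by their Ensembl rat gene identifiers (ENSRNOG00000008015, ENSRNOG00000026293, ENSRNOG00000019422, ENSRNOG00000003745 and ENSRNOG00000004500, in that order), and all 5 were present among the 21698 genes of the count table. NRK-52E, an epithelial line that serves as a model of tubule cells, had received vehicle or 40 µM cisplatin, a chemotherapy drug whose platinum adducts damage DNA and harm the kidney tubule. NRK-49F, a kidney fibroblast line, had been grown for 24 h in medium conditioned by untreated NRK-52E cells (untreated medium) or by NRK-52E cells given 40 µM cisplatin (cisplatin medium). The labels name no engineered allele in either line, and all cells were kept in DMEM with 5% FBS. For the NRK-52E cells the labels' protocol has 6 h of drug followed by 24 h without it, whereas the design text has 24 h of treatment, so the time between dosing and RNA extraction is uncertain. Whether the cisplatin medium given to NRK-49F still held drug is likewise uncertain, so values in NRK-49F describe the response to that medium as a whole.

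The proteins of all 5 genes bind DNA and control transcription. FOS and JUN family proteins form the dimer AP-1 through leucine zippers, ATF3 is a bZIP protein that can pair with JUN, EGR1 is a zinc finger factor, and MYC binds E-boxes as a dimer with MAX. Fos, Jun, Egr1 and Myc are textbook immediate early genes: serum, growth factors or stress switch them on within minutes through MAP kinases and factors already in the cell, such as SRF and CREB, and their mRNAs are short-lived. Atf3 is also induced by DNA damage, by amino acid shortage and by endoplasmic reticulum stress. In the injured kidney tubule these genes are known as early responders, and serum in the culture medium is itself an inducer.

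The RefSeq promoter table (GRCr8) held an entry for 1 of the 5 genes, Egr1, shown for its letter matches to elements of the SRF and CREB factors named above. The window covers chr18:26736828-26737127 on the plus strand, from 250 bases before the start site to 50 bases after it. Capitals mark matches to the CArG box, the SRF element, and to TGACG, which is one side of the CRE bound by CREB and ATF proteins.
Egr1 promoter: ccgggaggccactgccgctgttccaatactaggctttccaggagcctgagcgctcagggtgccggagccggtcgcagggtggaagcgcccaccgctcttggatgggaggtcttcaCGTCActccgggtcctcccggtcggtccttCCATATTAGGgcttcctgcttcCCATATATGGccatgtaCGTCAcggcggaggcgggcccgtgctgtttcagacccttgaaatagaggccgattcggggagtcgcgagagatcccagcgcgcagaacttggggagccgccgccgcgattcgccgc
The window held 2 CArG boxes, CCATATTAGG at -105 to -96 and CCATATATGG at -83 to -74 from the start site. Of 33469 promoters of the same length, 1.64% held at least 1 CArG box and 7 held 2 or more. TGACG was matched on the minus strand, as CGTCA, at -135 to -131 and at -66 to -62. Of all promoters, 21.2% held it at least 1 time and 4.96% held 2 or more matches. No match was found in this window to the full CRE (TGACGTCA, 1.83% of promoters), AP-1 (TGANTCA, 7.33%), the E-box (CACGTG, 6.42%), the EGR site (GCGNGGGCG, 4.98%) or TATAAA (14.2%). Both strands were searched, the full CRE contains TGACG, and a match is a match of letters only. Fos, Jun, Atf3 and Myc had no entry.

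There were 3 libraries per group and 12 in total, with total counts of 9684887 to 12549675. Levels are CPM (counts scaled to the size of the library, with TMM factors over all 12 libraries). The limit set by 0 counts, taken as 3 counts of a library, was 0.239 to 0.31 CPM before that scaling and reflects counting error alone. The lowest count of any of the 5 genes in any library was 27, so no value rests on this limit. Whether libraries of the same group were grown as separate cultures is not in the labels, and p-values therefore measure the spread between libraries, which may be technical. In such bulk samples fewer expressing cells and less RNA per cell cannot be told apart. The files pair no other identifier with a gene name, so markers of the 2 cell types and further genes of the AP-1, EGR and MYC pathways were not analysed here. Levels of different genes are not set against each other, because gene lengths of the counted models were not used here.

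**Figure D1:**
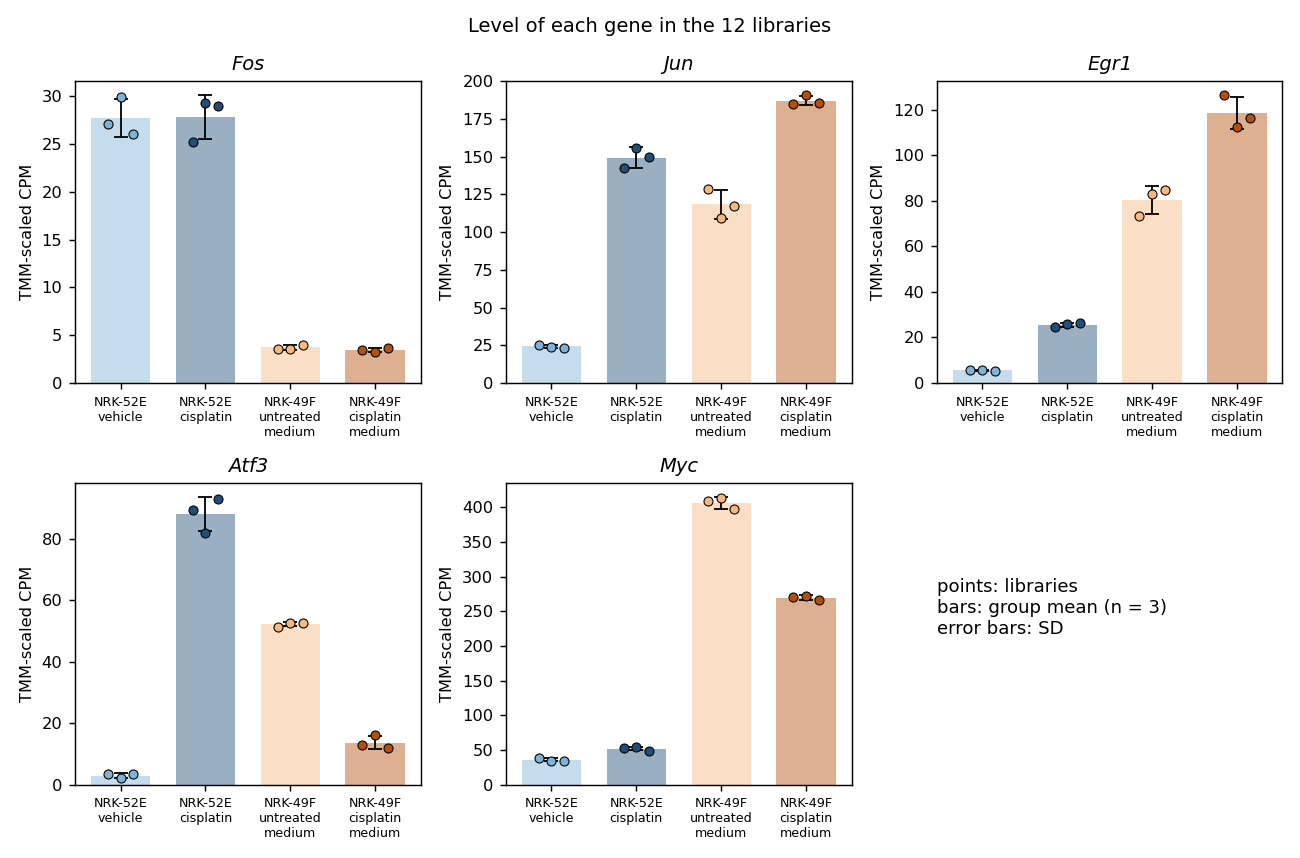
Level of Fos, Jun, Egr1, Atf3 and Myc in TMM-scaled CPM (vertical axes, starting at 0) in the 4 groups (horizontal axes), with a point for each library, bars for the group mean and error bars for the SD (n = 3). Fos stayed near 28 CPM in both NRK-52E groups, whereas Atf3 was near 3 CPM with vehicle and 88 CPM with cisplatin.

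The first comparison was of cisplatin with vehicle in NRK-52E. Atf3, Jun, Egr1 and Myc rose and Fos did not pass the test: 4 of the 5 genes rose and 0 fell, where edgeR's quasi-likelihood test called 76.2% of all 12508 genes tested, 38.7% as higher and 37.6% as lower. The groups did not overlap for the same 4 genes, as for 77.7% of all genes, and 3 of the 5 rose at least 2-fold, a size that 22.3% of all genes reached with a call in either direction. The median log2 fold change of the 5 genes was 2.17, against 0.01 over all genes tested. Under TMM scaling that median over all genes lies near 0, and their median absolute log2 fold change was 0.47. The increases ranged from 1.45-fold for Myc to 29.0-fold for Atf3.

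Jun, the AP-1 subunit that also acts as a homodimer, stood at 25.5, 24.1 and 23.4 CPM in the vehicle libraries and at 142, 156 and 150.2 CPM in the cisplatin libraries. Every cisplatin library lay far above every vehicle library. The increase was 6.09-fold (log2 fold change 2.61, SE 0.06, edgeR adjusted p = 1.72e-29). Fos, whose protein needs a JUN partner to bind DNA firmly, was at 27.1, 29.9 and 26.0 CPM with vehicle and at 25.1, 29.3 and 28.9 CPM with cisplatin. These ranges overlapped. The log2 fold change was -0.01 (SE 0.08, edgeR adjusted p = 0.926), and its 95% interval ran from 0.888-fold to 1.11-fold.

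Egr1, the zinc finger factor, was at 5.62, 5.88 and 5.35 CPM with vehicle and at 24.5, 25.9 and 26.2 CPM with cisplatin. The groups were well apart, and the vehicle values rest on 75 to 76 counts per library. The increase was 4.49-fold (log2 fold change 2.17, SE 0.11, edgeR adjusted p = 2.24e-19).

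Atf3, the stress-induced bZIP factor, had 47, 27 and 47 counts in the vehicle libraries, or 3.52, 2.09 and 3.31 CPM, and 89.2, 81.9 and 92.8 CPM with cisplatin. The second vehicle library was the lowest, and no library of either group came near the other group. The increase was 29.0-fold (95% interval 25.1 to 33.6), a log2 fold change of 4.86 (SE 0.10, edgeR adjusted p = 2.91e-30). It was the 204th largest increase among the 12508 genes, where Jun was the 634th, Egr1 the 806th and Myc the 3041st.

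Myc, which drives ribosome production and cell growth genes, was at 38.1, 34.6 and 34.4 CPM with vehicle and at 52.9, 54.2 and 49.1 CPM with cisplatin. The ranges did not overlap, but the step was small. The increase was 1.45-fold (log2 fold change 0.53, SE 0.07, edgeR adjusted p = 5.12e-09), and 55.2% of genes tested had a smaller absolute log2 fold change. Against a required change of 1.5-fold Myc no longer passed (glmTreat adjusted p = 1), while Jun, Egr1 and Atf3 did, as did 3883 genes in all.

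**Figure D2:**
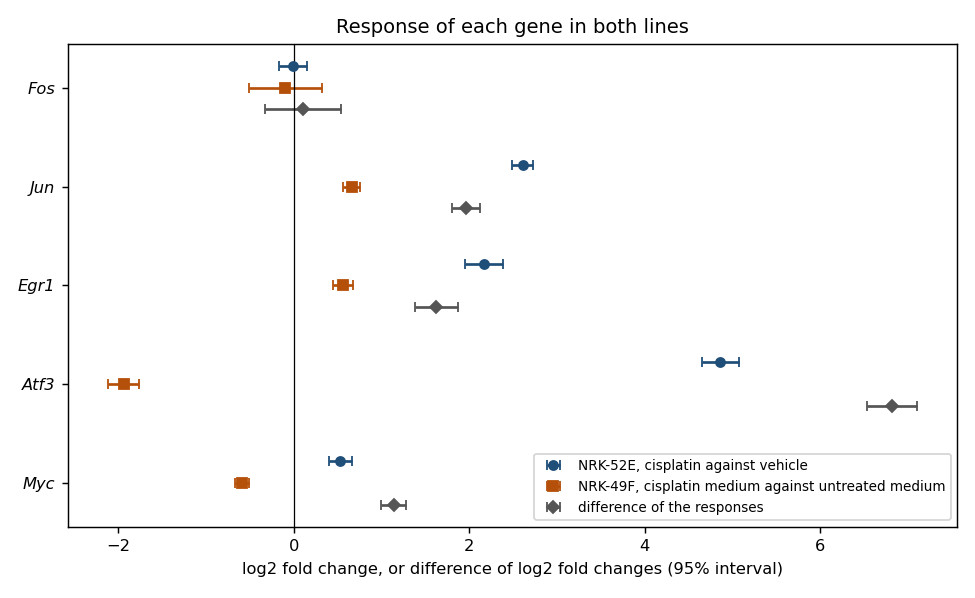
Log2 fold changes of the 5 genes in NRK-52E (cisplatin against vehicle) and NRK-49F (cisplatin medium against untreated medium), and the difference of these responses (horizontal axis, bars for 95% intervals from edgeR). Jun and Egr1 lie to the right of 0 in both lines, Atf3 and Myc on opposite sides of 0, and each interval of Fos spans 0.

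The second comparison was of cisplatin medium with untreated medium in NRK-49F, made to look at signals from injured epithelial cells to fibroblasts, per the design text. Jun and Egr1 rose, Atf3 and Myc fell, and Fos did not pass: 2 of 5 genes rose and 2 fell, where edgeR called 61.8% of the 11525 genes tested, 30.8% as higher and 31% as lower. The groups did not overlap for these 4 genes, as for 65.5% of all genes. The median log2 fold change of the 5 genes was -0.10, against 0.02 over all genes tested, whose median absolute log2 fold change was 0.28. Of these changes only that of Atf3 exceeded 2-fold, a size that 6.82% of genes tested reached with a call.

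Jun was at 128, 109 and 118 CPM in untreated medium and at 185, 191 and 186 CPM in cisplatin medium. The untreated libraries were the more scattered, and the ranges were apart. The increase was 1.58-fold (log2 fold change 0.66, SE 0.05, edgeR adjusted p = 5.49e-14). Fos was low in NRK-49F, with 35, 30 and 37 counts in untreated medium and 35, 36 and 43 counts in cisplatin medium, or 3.56, 3.57 and 4.0 CPM against 3.50, 3.22 and 3.66 CPM. The groups overlapped. The log2 fold change of Fos was -0.10 (SE 0.21, edgeR adjusted p = 0.703), with a 95% interval of 0.70-fold to 1.25-fold. A change within that interval was not excluded at this depth.

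Egr1 was at 73.5, 83.2 and 84.6 CPM in untreated medium and at 126, 113 and 116 CPM in cisplatin medium. All 3 cisplatin medium libraries lay above all 3 others. The increase was 1.48-fold (log2 fold change 0.56, SE 0.06, edgeR adjusted p = 7.42e-11).

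Atf3 was at 51.4, 52.7 and 52.7 CPM in untreated medium and at 12.9, 16.0 and 11.9 CPM in cisplatin medium. The untreated libraries were nearly equal, and the cisplatin medium libraries were all far below them. The log2 fold change was -1.94 (SE 0.09, edgeR adjusted p = 4.56e-20), a 3.83-fold decrease and the 79th largest decrease among the 11525 genes.

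Myc was at 408, 414 and 397 CPM in untreated medium and at 271, 273 and 266 CPM in cisplatin medium. The values within each group lay within a few percent of each other. The log2 fold change was -0.59 (SE 0.04, edgeR adjusted p = 1.54e-15), a 1.5-fold decrease. Against a required change of 1.5-fold, Jun (glmTreat adjusted p = 0.154), Egr1 and Myc (glmTreat adjusted p = 1 each) no longer passed and Atf3 did, among 1184 genes in all.

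A direction in NRK-49F is stated against the level of most other genes. Scaling by library size alone shifted the median log2 fold change over all genes by 0.20, with 5918 genes called higher and 1926 lower in place of 3555 and 3568. Jun, Egr1, Atf3 and Myc kept direction and call, at log2 fold changes of 0.86, 0.76, -1.74 and -0.39, and Fos, still not called, moved to 0.10.

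The responses of the 2 lines were then compared directly, as a difference of log2 fold changes in a single edgeR fit of all 12 libraries, which called 66.5% of 13127 genes. The difference passed for Jun, Egr1, Atf3 and Myc and in each case the value was higher in NRK-52E, where 33.9% of genes were called in that direction and 32.6% in the other. Fos did not pass, with a difference of 0.11 (95% interval -0.32 to 0.54, edgeR adjusted p = 0.694). Jun rose in both lines and by 1.96 more on the log2 scale in NRK-52E (SE 0.08, edgeR adjusted p = 5.52e-26). Egr1 likewise rose in both, with a difference of 1.62 (SE 0.12, edgeR adjusted p = 2.61e-16). The lines received different agents, a drug and a conditioned medium, so line and agent cannot be told apart.

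Atf3 and Myc moved in opposite directions in the 2 lines. The difference for Atf3 was 6.81 (95% interval 6.53 to 7.10, edgeR adjusted p = 3.73e-37), and 99.3% of genes tested had a smaller absolute difference. That for Myc was 1.14 (SE 0.07, edgeR adjusted p = 7.27e-19). Of 10937 genes with a test in each line, 15.5% were called higher in NRK-52E and lower in NRK-49F, as Atf3 and Myc did, and 7.78% were called higher in both, as Jun and Egr1 did. As a description of its size, 3 other genes matched or exceeded both the increase and the decrease of Atf3.

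**Figure D3:**
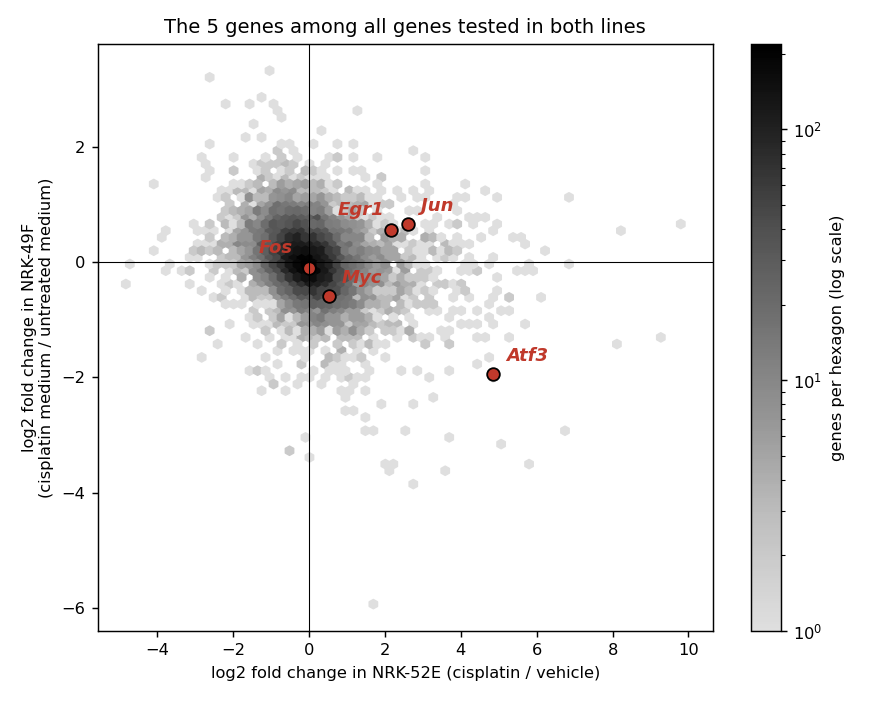
Log2 fold change in NRK-52E (horizontal axis) against that in NRK-49F (vertical axis) for 10937 genes tested in both lines, as hexagons shaded by the number of genes on a log scale, with the 5 genes as labelled red points. Atf3, at 4.86 and -1.94, lies away from the dense centre in which Fos and Myc fall.

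The control groups of the lines differed in all 5 genes. In NRK-52E with vehicle against NRK-49F in untreated medium, 1 gene was higher and 4 were lower, where edgeR called 85.3% of 12147 genes tested, 43.1% as higher and 42.2% as lower. The groups did not overlap for any of the 5, as for 85.8% of all genes. The median log2 difference of the 5 genes was -3.48, against 0.03 over all genes tested, whose median absolute log2 difference was 0.79. Fos was 7.57-fold higher in the epithelial line (log2 difference 2.92, SE 0.13, edgeR adjusted p = 2.14e-27). The other 4 were lower there, by 4.79-fold for Jun, 14.0-fold for Egr1, 17.1-fold for Atf3 and 11.2-fold for Myc (edgeR adjusted p = 8.29e-50 for Myc, at a log2 difference of -3.48). The medium differed as well as the line, and these cannot be told apart. With library size as the only scaling the median of all genes moved by 0.46 on the log2 scale, and 7365 genes were called higher and 3381 lower in place of 5240 and 5126. The 5 differences kept their direction and call, at log2 values of 3.38 for Fos, -1.80 for Jun, -3.35 for Egr1, -3.63 for Atf3 and -3.02 for Myc.

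Ordered by group mean over the 4 groups, no 2 of the 5 genes had the same sequence of levels. How often 5 other genes would all differ in this way was not computed. Fos was highest in NRK-52E, at 27.8 ± 2.29 CPM with cisplatin and 27.7 ± 1.97 CPM with vehicle, and lowest in NRK-49F, at 3.71 ± 0.25 CPM in untreated and 3.46 ± 0.22 CPM in cisplatin medium (SD, n = 3 each). Only the step between the lines exceeded the spread of Fos, and the NRK-49F groups changed places with library size as the only scaling. Jun was highest in NRK-49F with cisplatin medium (187 ± 3.02 CPM), then in NRK-52E with cisplatin (149.5 ± 6.77 CPM), in NRK-49F with untreated medium (118 ± 9.55 CPM) and in NRK-52E with vehicle (24.3 ± 1.07 CPM). All neighbours were apart, but the first pair overlapped with library size as the only scaling, at 175 ± 2.31 and 174 ± 8.45 CPM.

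Egr1 stood highest in NRK-49F, at 118 ± 7.06 CPM in cisplatin and 80.4 ± 6.07 CPM in untreated medium, above NRK-52E with cisplatin (25.5 ± 0.91 CPM) and with vehicle (5.61 ± 0.27 CPM). Atf3 alone was highest in NRK-52E with cisplatin (88.0 ± 5.59 CPM) while that line's vehicle group was lowest (2.97 ± 0.77 CPM), with NRK-49F in untreated (52.3 ± 0.76 CPM) and cisplatin medium (13.6 ± 2.14 CPM) between them. Myc descended from NRK-49F in untreated (406 ± 8.31 CPM) and cisplatin medium (269.7 ± 3.63 CPM) to NRK-52E with cisplatin (52.1 ± 2.62 CPM) and with vehicle (35.7 ± 2.09 CPM). For Egr1, Atf3 and Myc the ranges of all neighbours were apart under both scalings. The share of all genes with 4 groups apart in this way was not computed. Separation of 2 groups was common, at 77.7% of genes tested for cisplatin in NRK-52E and 65.5% for cisplatin medium in NRK-49F. Between the control groups of the lines it was 85.8%. By these levels, NRK-52E with cisplatin held less Egr1 and less Myc than either NRK-49F group. That step across lines was not tested, and the share of all genes apart in it was not computed. Line and agent cannot be told apart in it.

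Ratios of counts within a library do not depend on scaling between libraries, and they were computed for 3 pairs in each line after the values above were seen. Jun counts per Fos count were 0.939, 0.806 and 0.897 in NRK-52E with vehicle and 5.66, 5.33 and 5.19 with cisplatin. In NRK-49F the ratio of Jun to Fos was 36.1, 30.7 and 29.4 in untreated and 53.0, 59.2 and 50.7 in cisplatin medium. In both lines every treated library held more Jun per Fos than every control library. Atf3 counts per Jun count were 0.138, 0.0868 and 0.142 with vehicle and 0.627, 0.525 and 0.618 with cisplatin in NRK-52E. In NRK-49F they were 0.400, 0.482 and 0.449 in untreated and 0.0695, 0.0840 and 0.0643 in cisplatin medium. Atf3 per Jun was thus higher in every cisplatin library of NRK-52E and lower in every cisplatin medium library of NRK-49F than in the controls of that line. Egr1 per Fos was 0.203 ± 0.0055 with vehicle and 0.921 ± 0.0465 with cisplatin in NRK-52E, and 21.7 ± 1.43 and 34.3 ± 2.25 in NRK-49F (SD, n = 3 each). Fos did not pass in either line, so the ratios to Fos restate the changes of Jun and Egr1. Each of the 6 comparisons gave an exact two-sided permutation p = 0.1, before and after Benjamini-Hochberg adjustment. That is the smallest value that 3 libraries against 3 allow. Any ratio whose groups separate gives this value, so it adds no support, and the share of other gene pairs that separate was not computed. The ratios are not corrected for gene length, so only their change is informative.

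**Figure D4:**
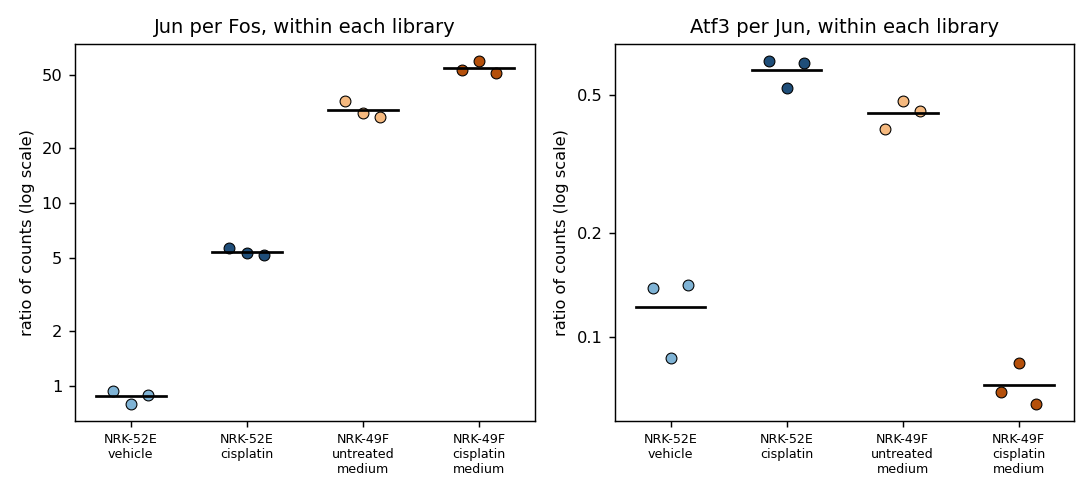
Counts of Jun per count of Fos (left) and of Atf3 per count of Jun (right) within each library, on log axes, for the 4 groups, with a point for each library and a line for the group mean (n = 3). Jun per Fos is higher in the treated group of both lines, whereas Atf3 per Jun is higher with cisplatin in NRK-52E and lower with cisplatin medium in NRK-49F.

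As a measure of likeness, each gene's log2 CPM was correlated with that of 11235 other genes over the 12 libraries, which fall into 4 groups and share their lines and treatments. The highest value belonged to Fos and ENSRNOG00000014549 (Pearson r = 0.999). That gene was at 34.8 ± 0.77 and 36.1 ± 2.65 CPM in the NRK-52E vehicle and cisplatin groups. It was at 0 to 0.036 CPM on average in the NRK-49F groups, below the limit set by 0 counts. This value mainly follows the step between the lines, since Fos did not pass in either line. The next belonged to Myc and ENSRNOG00000020651 (Pearson r = 0.999), at 104 ± 3.81 and 149 ± 3.45 CPM in NRK-52E with vehicle and cisplatin and 779 ± 11.6 and 523 ± 4.83 CPM in NRK-49F with untreated and cisplatin medium (SD, n = 3 each). The closest gene reached 0.996 for Jun, 0.997 for Egr1 and 0.991 for Atf3. These are descriptions of 4 group levels.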

How the data were processed

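The authors deposited a single table of raw counts, in which rows are Ensembl rat genes and the 12 columns carry the sample titles. The submitters' processing notes list STAR 2.7.10a, featureCounts and Subread. Which genome build, annotation and strand setting were used is not given in the sources used here, so reads of overlapping or antisense genes may be counted together. The RefSeq gene table (GRCr8) matched 0 of 21698 identifiers, so the fixed lists of pathway genes and cell type markers could not be applied. The 5 genes and all lists were chosen with earlier results of these data known.

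Counts were fitted with edgeR 4.0.16 in R 4.3.3 over all genes: genes were kept by filterByExpr (minimum count 10, minimum total 15), scaled by TMM and tested with glmQLFit and glmQLFTest at a Benjamini-Hochberg adjusted p of 0.05. Each pair of groups was fitted apart, and the difference of responses in all 12 libraries. Standard errors and 95% intervals were derived from the F statistic. The named genes were the 5 members, plus at most 2 identifiers of genes most like them (mean of at least 2 CPM, prior count 2). Alternatives were DESeq2 1.42.0, library size only, no filter, glmTreat against 1.5-fold, a single fit of all libraries, the replicate block and leaving out each library. Replicate libraries differed beyond sampling noise (chi-square per degree of freedom 1.67 to 3.84). The fits were first tested on simulated data with known changes. Figures used matplotlib 3.10.9 in Python 3.11.15.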

Additional observations from a re-analysis of the deposited data

Results flagged for a closer look

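For 4 of the 5 genes the responses passed the test of the difference itself, and they are listed for that reason. The same test called 66.5% of 13127 genes, so the count is near the share over all genes, and line and agent cannot be told apart. The log2 fold change in NRK-52E minus that in NRK-49F was 1.96 for Jun (edgeR adjusted p = 5.52e-26), 1.62 for Egr1 (edgeR adjusted p = 2.61e-16), 6.81 for Atf3 (edgeR adjusted p = 3.73e-37) and 1.14 for Myc (edgeR adjusted p = 7.27e-19). No rule for flagging a single deviating library was applied, since groups held 3 libraries each. The influence of single libraries was looked at only by leaving out each in turn.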

How the results depend on the processing

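For Jun, Egr1, Atf3 and Myc in the 4 comparisons, 208 of 212 alternative fits kept direction and call, and 0 reversed. The 4 that lost a call were all tests against 1.5-fold: Myc in NRK-52E (log2 fold change 0.53) and Jun (0.66), Egr1 (0.56) and Myc (-0.59) in NRK-49F. That test called 3883 genes in NRK-52E, 1184 in NRK-49F, 6413 between the control groups of the lines and 4512 for the difference, against 9536, 7123, 10366 and 8724. Fos was called in 0 of 41 alternative fits of its responses and their difference (adjusted p 0.502 to 1), and its sign turned in 7. In NRK-52E it was 0.0011 with DESeq2, 0.034 with library size only, 0.0067 with all libraries in a single fit, and -0.064 to 0.063 with a library left out. With library size only it was 0.10 in NRK-49F and -0.070 for the difference, where 3602 genes were then called higher and 5196 lower in place of 4447 and 4277. Same-numbered libraries did not deviate together (correlations of -0.084 to 0.017 within lines and -0.039 to 0.01 between the control groups of the lines), so numbers were not taken as pairs. The replicate block gave 9382, 7020, 10324 and 8681 calls and left every call of the 5 genes as it was. Depth limits Fos in NRK-49F most, with 102 and 114 counts per group.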
